A study of Mus musculus with 12 samples.

Results

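The 9 genes described here, Tpt1, Pabpc1, Eef1a1, Eef1b2, Eef1d, Eef1g, Eef2, Hnrnpa1 and Nap1l1, are 5′-TOP mRNAs or translation elongation genes that do not encode ribosomal proteins. They are 9 of the 20661 genes in the count files, and all 9 passed the filter on low counts in each of the 9 fits. The genes were chosen by name and function, but the list was drawn up with earlier TE, RNA and footprint results of these data known, so the values of its members are a description, and the p-values given come from fits over all genes. A 5′-TOP mRNA carries a C at its first transcribed base followed by an unbroken run of pyrimidines. The run is bound by LARP1, and translation of these mRNAs rises and falls with mTORC1 signalling, so that cells can switch synthesis of the translation machinery together. Elongation itself is driven by eEF1A, which brings aminoacyl-tRNA to the ribosome, by the eEF1B complex, which recharges eEF1A with GTP, and by eEF2, which moves the ribosome along the mRNA.

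RNAseq and ribosome profiling, which sequences the fragments of mRNA covered by ribosomes, were performed on mouse embryonic fibroblasts (MEFs) in 3 groups with 2 replicates each, giving 12 libraries. WT-shSCR MEFs were wildtype cells transduced with a lentiviral scrambled shRNA, WT-shARF MEFs were wildtype cells transduced with an shRNA against Arf, and Arf-/- shSCR MEFs were knockout cells transduced with the scrambled shRNA. All cells were at passage 4 and, per the methods of the study, were selected with puromycin after transduction. The labels give the strain as C57BL/6J for the wildtype cells and B6.129X1-Cdkn2atm1Cjs/KaiJ for the knockout, while the methods name B6129SF2/J for the wildtype, so strain background and genotype cannot be told apart. In the knockout a neo cassette takes the place of exon 1β of Cdkn2a, the gene that encodes both ARF and INK4A. Nothing says that the replicates came from separate cultures or embryos, so p-values measure the spread between these libraries, which may be technical. Translation efficiency (TE) is the ratio of footprints to RNA. RNA, footprints and TE are all scaled to each library, so a change shared by all genes would not be seen.

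The libraries held 1578627 to 3989908 reads on genes in RNAseq and 2544319 to 5157572 in footprints. Cdkn2a, the targeted gene, had 119 and 65 reads in WT-shSCR RNA and 76 and 75 in Arf-/- shSCR RNA, but 1201 and 2852 in the RNA libraries labelled WT-shARF. In CPM (read counts divided by the TMM-adjusted library total and rescaled), these were 44.8 and 41.9, 27.7 and 32.2, and 644 and 668. Footprints were at 93.4 and 66.2 CPM, 39.6 and 34.4 CPM, and 533 and 741 CPM in the same order. These counts pool Arf and Ink4a. They show no lower level in the libraries labelled WT-shARF, for which every direction given here therefore depends on the label. All 11 fibroblast markers were detected in every group, with a summed RNA level of 21407 to 24848 CPM in WT-shSCR, 22232 to 22403 CPM in WT-shARF-labelled libraries and 16313 to 17541 CPM in Arf-/- shSCR. The 11 macrophage markers summed to 523 to 539 CPM of RNA in WT-shSCR, 187 to 277 CPM in WT-shARF-labelled libraries and 57.5 to 81.2 CPM in Arf-/- shSCR, and none of the 11 was at 0. The 10 epithelial or mesothelial markers summed to 93.0 to 94.8, 57.3 to 71.5 and 159 to 182 CPM in the same order, and the 5 endothelial markers stayed at 22.8 to 39.9 CPM with Cdh5 at 0 in WT-shSCR and Arf-/- shSCR RNA. The part of these marker differences in the results below was not tested. In such bulk libraries fewer cells of a type and less RNA per cell cannot be told apart.

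The 5′ ends of 8 of the genes are shown because they define the class. Each line gives 30 bases of an annotated coding transcript of GENCODE M21, 5′ to 3′, with a pyrimidine tract that opens with C and spans at least 5 bases in capitals. The tract shown is the one nearest to an annotated 5′ end, with up to 10 bases before it.
Tpt1: cccgcgtcggCCTTTTCCgcccgctccccc
Pabpc1: CCCCTTCTCCCCggcggttagtgctgagag
Eef1a1: cttggacgttCTTTTTCgcaacgggtttgc
Eef1d: CTCTCCTTTgcagtcctgagctcgcagttc
Eef1g: cgtgcgtatgCCTTTTatgccgtcctcgct
Eef2: cgtcagcggtCTCTTCCgccgcagccgccg
Hnrnpa1: CTTTCTgctctttgacgctgccgaggaagc
Nap1l1: CTTTTTTagcgccatctgctcgcggcgccg

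All 8 windows lie in the first exon and the 5′ UTR. In GRCm38 they are at chr14:75845320-75845349 (plus strand) for Tpt1, chr15:36608944-36608973 (minus) for Pabpc1, chr9:78481652-78481681 (minus) for Eef1a1, chr15:75909277-75909306 (minus) for Eef1d, chr19:8967074-8967103 (plus) for Eef1g, chr10:81176636-81176665 (plus) for Eef2, chr15:103240454-103240483 (plus) for Hnrnpa1 and chr10:111473227-111473256 (plus) for Nap1l1. In Pabpc1, Eef1d, Hnrnpa1 and Nap1l1 the tract opened at the first annotated base of 1 coding transcript, and in Tpt1, Eef1a1, Eef1g and Eef2 there were 28, 53, 43 and 15 annotated bases before it. A tract at the first base of at least 1 coding transcript was thus found in 4 of these 8 genes and in 5.39% of the 10948 tested genes with an annotated coding transcript. Among the 79 tested ribosomal protein genes, the main 5′-TOP class, it was found in 26.6%. Counted over transcripts it was 4 of 33 against 1.91% of 35243, since a gene with more transcripts has more chances to hold one. This rule was adopted after a first one had been run and its picks for these genes seen. The first rule took the longest pyrimidine tract anywhere in the first 100 bases, and by it all 8 held a tract of at least 7 bases, as did 57.5% of tested genes, and 4 of 8 held one of at least 12, as did 12.3%. The genes were listed as 5′-TOP or elongation genes, so neither count is a finding about them, and annotated 5′ ends are not measured start sites.

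Among elongation factors, eEF1A1 and eEF2 were the most abundant members, and their footprints were higher in Arf-/- shSCR with little difference in RNA. Per kilobase of coding sequence, WT-shSCR RNA levels ran from 4346 ± 49.6 CPM per kb (SD, n = 2) for Eef1a1 through 2108 ± 104 for Eef2 and 965 ± 123 for Tpt1 to 52.1 ± 4.63 for Hnrnpa1. Eef1g (1404 ± 151) and Eef1b2 (1391 ± 31.2) did not differ beyond their spread on that scale, and the value of Eef1d, 211 ± 17.0, is divided by a coding length that includes an exon of its long isoform.

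Eef1a1, which encodes the major form of the tRNA carrier, had footprint levels of 7165 and 6747 CPM in WT-shSCR, 7872 and 7689 CPM in WT-shARF-labelled libraries, and 8719 and 8831 CPM in Arf-/- shSCR. Its RNA was at 5975 and 6072 CPM in WT-shSCR, 5686 and 5744 CPM in WT-shARF-labelled libraries, and 6198 and 5141 CPM in Arf-/- shSCR. The footprint groups did not overlap, whereas the RNA of the knockout spanned both other groups. Over all genes tested, 27.5% had both knockout footprint libraries above both WT-shSCR libraries. The share was 25.4% for WT-shARF above WT-shSCR and 25.2% for the knockout above WT-shARF. Eef2, the translocase, had footprints at 3975 and 3911 CPM in WT-shSCR, 4424 and 4471 CPM in WT-shARF-labelled libraries and 4455 and 4612 CPM in Arf-/- shSCR. Its RNA was at 5614 and 5236 CPM, 4849 and 4613 CPM, and 5104 and 5499 CPM in the same order. Both wildtype control footprint libraries of Eef2 were below the other 4, which overlapped each other.

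Eef1b2, a nucleotide exchange subunit of eEF1B, had footprints at 615 and 567 CPM in WT-shSCR, 792 and 837 CPM in WT-shARF-labelled libraries and 952 and 886 CPM in Arf-/- shSCR. Its RNA was at 954 and 924 CPM, 872 and 826 CPM, and 908 and 814 CPM. Footprints of Eef1b2 therefore went from below the RNA value in WT-shSCR to close to it in the other groups. Eef1d, the other exchange subunit, had footprints at 383 and 305 CPM, 440 and 457 CPM, and 487 and 454 CPM, and RNA at 453 and 404 CPM, 449 and 468 CPM, and 525 and 565 CPM. Eef1g, the structural subunit, had footprints at 1089 and 1130 CPM, 1423 and 1338 CPM, and 1499 and 1528 CPM, and RNA at 1981 and 1700 CPM, 1950 and 1884 CPM, and 2198 and 2442 CPM. For both Eef1d and Eef1g the knockout libraries had the highest RNA of the 3 groups. Over all genes tested, knockout RNA lay above both WT-shSCR libraries for 25.3% and above both libraries labelled WT-shARF for 23.6%.

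Tpt1, which encodes the translationally controlled tumor protein, and Pabpc1, which encodes the cytoplasmic poly(A)-binding protein, had lower RNA values beside higher footprints in the knockout. Tpt1 RNA was at 453 and 542 CPM in WT-shSCR, 491 and 433 CPM in WT-shARF-labelled libraries and 353 and 324 CPM in Arf-/- shSCR. Tpt1 footprints were at 688 and 687 CPM, 819 and 740 CPM, and 1079 and 993 CPM. Neither measure overlapped between the knockout and any other group. Such separation was common over all genes tested. Knockout RNA lay below both WT-shSCR libraries for 26.2% of genes and below both libraries labelled WT-shARF for 23.6%. Knockout footprints lay above those groups for 27.5% and 25.2%. Pabpc1 RNA was at 418 and 684 CPM in WT-shSCR, 628 and 452 CPM in WT-shARF-labelled libraries and 399 and 348 CPM in Arf-/- shSCR. The RNA of Pabpc1 thus differed widely between the WT-shSCR libraries and overlapped between the wildtype groups. Its footprints were tighter, at 597 and 588 CPM, 687 and 650 CPM, and 777 and 817 CPM.

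Hnrnpa1 encodes an RNA-binding protein of splicing and mRNA export, and Nap1l1 a histone chaperone. Hnrnpa1 had few RNA reads, 96 to 303 per library, at 54.6 and 61.9 CPM in WT-shSCR, 59.5 and 71.0 CPM in WT-shARF-labelled libraries and 81.2 and 109 CPM in Arf-/- shSCR. Its footprints were at 244 and 225 CPM, 312 and 303 CPM, and 305 and 397 CPM, so the knockout overlapped the libraries labelled WT-shARF. Nap1l1 had footprints at 571 and 587 CPM, 626 and 630 CPM, and 832 and 775 CPM, and RNA at 203 and 224 CPM, 241 and 238 CPM, and 275 and 225 CPM. The knockout stood above both other groups in Nap1l1 footprints only. Of all genes tested, 27.5% stood above WT-shSCR in this way and 25.2% above WT-shARF.

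**Figure D1:**
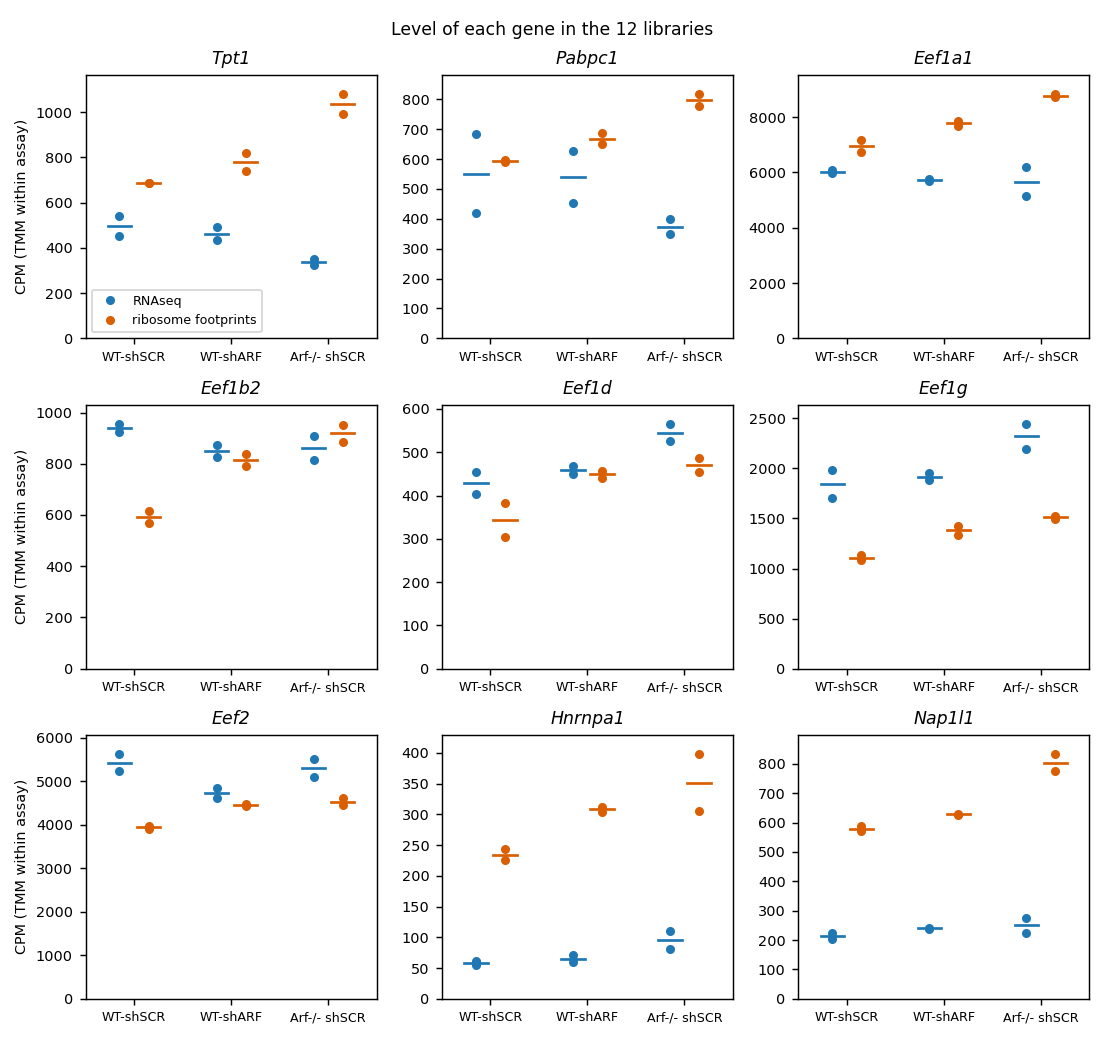
Level of each of the 9 genes, in CPM with TMM factors within each assay, in the 2 RNAseq and 2 footprint libraries of each group. Points are libraries and short lines are group means. Tpt1 footprints lie at 687 and 688 CPM in WT-shSCR and at 993 and 1079 CPM in Arf-/- shSCR, while its RNA is lowest in the knockout.

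The copies of these genes limit what the counts hold. RNAseq fragments and footprints were short, and only reads aligned to a single place were assigned to a gene, with 79.2% to 81.4% of RNAseq and 46.3% to 52.9% of footprint alignments set aside as not unique. Of the 30-base words in the coding sequence, 100% of those of Tpt1 also occurred in annotated transcripts of other genes elsewhere in the genome, as did 95.2% of those of Eef1g, 88.5% of Eef1a1, 87.9% of Nap1l1, 85.6% of Hnrnpa1 and 50.8% of Pabpc1. The share was 28.5% for Eef2, 24.6% for Eef1b2 and 17.8% for Eef1d. With words of 20 bases the share was 64.7% for Pabpc1, 46.5% for Eef2, 30.3% for Eef1b2 and 24.8% for Eef1d. Values of Tpt1, Eef1g, Eef1a1, Nap1l1, Hnrnpa1 and Pabpc1 are uncertain for this reason, and those of the other members are limited by it to a lesser degree. The part of these shared words in the differences between groups was not tested.

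Loss of Arf by knockout was compared with WT-shSCR to ask which mRNAs change in ribosome occupancy beyond their RNA. Footprints of all 9 genes were higher in Arf-/- shSCR, by log2 fold changes of 0.21 for Eef2 to 0.65 for Eef1b2, with a median of 0.46 against -0.00087 over all 10737 genes tested (edgeR quasi-likelihood test, adjusted p from 4.15e-07 to 0.00538). In that comparison 9.57% of genes tested were called higher and 8.95% lower. All 9 members also had both knockout footprint libraries above both control libraries, as did 27.5% of genes tested. The calls rest on both WT-shSCR footprint libraries: without replicate 1 or without replicate 2 of that group, the calls of members and of all other genes were lost. Without a knockout library most member calls stayed, and calls over all genes fell. Across the fits without 1 library, the change ran from 0.31 to 0.65 for Eef1d and from 0.40 to 0.78 for Hnrnpa1. Tpt1 footprints rose by 0.60 ± 0.08 (SE) on the log2 scale and Eef1b2 footprints by 0.65 ± 0.08. Hnrnpa1 footprints rose by 0.59 ± 0.11, Nap1l1 by 0.49 ± 0.08, Eef1d by 0.46 ± 0.10, Eef1g by 0.46 ± 0.07, Pabpc1 by 0.44 ± 0.08 and Eef1a1 by 0.35 ± 0.05.

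RNA of the 9 genes moved both ways in the knockout. Tpt1 RNA fell by 0.56 ± 0.15 on the log2 scale (edgeR, adjusted p = 0.0269) and Hnrnpa1 RNA rose by 0.71 ± 0.21 (adjusted p = 0.0441), and the other 7 members were not called. Of all 10659 genes tested for RNA, 3.94% were called higher and 3.99% lower. Both calls were lost when WT-shSCR replicate 1, WT-shSCR replicate 2 or Arf-/- shSCR replicate 2 was left out of the RNAseq fit. Pabpc1 RNA had a log2 fold change of -0.56 ± 0.19 (adjusted p = 0.0738), which ran from -0.16 without WT-shSCR replicate 2 to -0.88 without WT-shSCR replicate 1 and was called in the latter fit and without Arf-/- shSCR replicate 1 (adjusted p = 0.0211). The RNA change was 0.34 ± 0.15 for Eef1d and 0.33 ± 0.14 for Eef1g. Eef1a1, Eef1b2, Eef2 and Nap1l1 were between -0.13 and 0.23.

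TE of Tpt1 and Eef1b2 was higher in the knockout. Tpt1 TE rose by 1.13 ± 0.16 on the log2 scale, a 2.19-fold change (edgeR interaction test, adjusted p = 0.00257), and Eef1b2 TE by 0.75 ± 0.15, a 1.68-fold change (adjusted p = 0.0393). These were 2 of the 10 genes called higher, which are 0.0884% of 11314 tested, and 12 (0.106%) were called lower. Tpt1 stayed called in all 9 alternative settings, and its change ran from 1.01 to 1.26 in the 8 fits that left out 1 library. All of these fits used the same unique-alignment counts. Since 100% of the 30-base words of Tpt1 also occur in transcripts of other genes, they do not test which gene its reads came from. Eef1b2 stayed called in all 9 settings but in only 2 of the 8 fits without a library, where its change ran from 0.69 to 0.88 and the adjusted p reached 0.237. Pabpc1 TE had a log2 fold change of 0.96 ± 0.22 (adjusted p = 0.0757) and ran from 0.58 to 1.29 when 1 library was left out. It was called in 4 of the 9 alternative settings, of which DESeq2 was not one. Eef1a1 had 0.41 ± 0.12 (adjusted p = 0.301), and Eef1d, Eef1g, Eef2, Hnrnpa1 and Nap1l1 were between -0.15 and 0.23. In the fitted values, the rise of Tpt1 TE combined higher footprints with lower RNA. That RNA change ran from -0.68 to -0.41 without 1 library and was not called with a replicate block (edgeR, adjusted p = 0.051). Eef1b2 had an RNA change of -0.13 ± 0.14 that was not called.

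**Figure D2:**
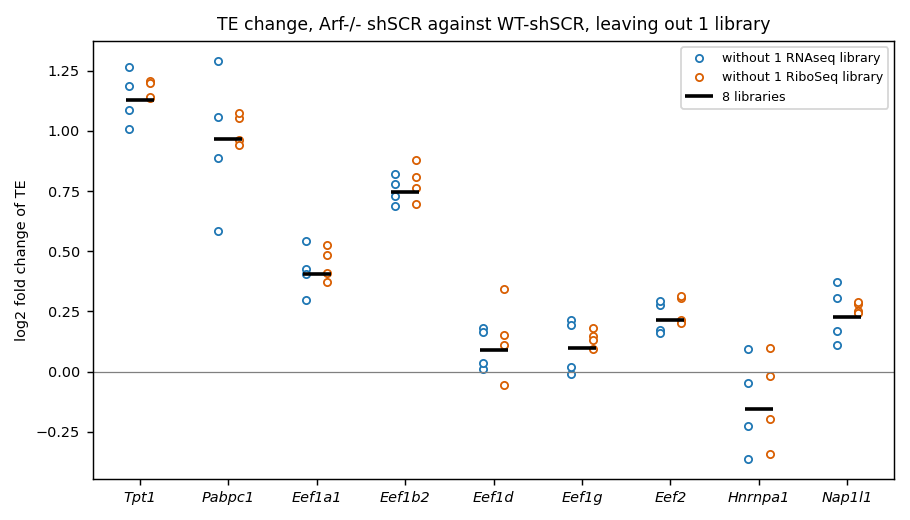
Log2 fold change of TE between Arf-/- shSCR and WT-shSCR for each gene with all 8 libraries (bars) and without each library in turn (open points, coloured by assay). Tpt1 stays between 1.01 and 1.26, while Pabpc1 runs from 0.58 to 1.29 and Hnrnpa1, Eef1d and Eef1g cross 0.

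Knockdown was compared with WT-shSCR to ask the same of cells labelled as depleted of ARF without the knockout background. Footprints of 6 of the 9 genes were higher in the libraries labelled WT-shARF, where 5.63% of 10307 genes tested were called higher and 5.5% lower. Eef1b2 rose by 0.47 ± 0.08 on the log2 scale, Hnrnpa1 by 0.39 ± 0.10, Eef1d by 0.38 ± 0.10, Eef1g by 0.32 ± 0.07, Eef2 by 0.18 ± 0.05 and Eef1a1 by 0.16 ± 0.05 (edgeR, adjusted p from 9.87e-05 to 0.0239). Tpt1, Pabpc1 and Nap1l1 had footprint changes of 0.18 ± 0.08, 0.17 ± 0.08 and 0.12 ± 0.08 that were not called. All 9 members had both libraries labelled WT-shARF above both controls in footprints, as did 25.4% of genes tested. When either footprint library of that group was left out, most of these calls were lost, and calls over all genes fell as well. Across the fits without 1 library, the change ran from 0.41 to 0.52 for Eef1b2, 0.23 to 0.56 for Eef1d and 0.12 to 0.20 for Eef1a1.

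No member was called for RNA or TE in the libraries labelled WT-shARF. For RNA, edgeR and DESeq2 both called 0 of 9, and 0 had an unadjusted p under 0.05, where edgeR called 3.11% of 10503 genes higher and 4.17% lower. For TE, edgeR called 0 of 9, where it called 0.0354% of 11289 genes. DESeq2 called 2 members higher, where over all genes it called 47 higher and 3 lower. An unadjusted p under 0.05 was found for 3 members, and its share over all genes is not given here. Eef1b2 had a TE change of 0.63 ± 0.15 (adjusted p = 0.102), Eef2 of 0.39 ± 0.12 (adjusted p = 0.332), Tpt1 of 0.30 ± 0.16, and Nap1l1 of -0.04 ± 0.16.

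The knockout was set directly against the libraries labelled WT-shARF, which tests whether the effects of knockout and knockdown differ. Tpt1 TE was higher in Arf-/- shSCR by 0.87 ± 0.14 on the log2 scale (edgeR, adjusted p = 0.0159), 1 of 2 genes called higher, which are 0.0172% of 11632 tested, with 0.0258% called lower. That call was lost without WT-shARF footprint replicate 2 and without either knockout footprint library. Footprints of Tpt1, Nap1l1, Pabpc1 and Eef1a1 were higher in the knockout by 0.42 ± 0.07, 0.36 ± 0.07, 0.26 ± 0.07 and 0.18 ± 0.04, where 3.93% of 10941 genes were called higher and 4.3% lower. When either WT-shARF footprint library was left out, 0 of 9 members stayed called, and over all genes edgeR then called 0 higher and 0 lower of 11365 without replicate 1, and 0 higher and 1 lower of 11301 without replicate 2. The footprint changes of Eef1b2, Eef1d, Eef1g, Eef2 and Hnrnpa1 were between 0.03 and 0.19 and were not called. For RNA, edgeR and DESeq2 called 0 of 9 members, where edgeR called 1.38% of 10632 genes higher and 1.19% lower. An unadjusted p under 0.05 was found for 4 members, and its share over all genes is not given here. Pabpc1 RNA had a log2 fold change of -0.53 ± 0.16 (adjusted p = 0.0924), which ran from -0.28 without WT-shARF replicate 1 to -0.76 without WT-shARF replicate 2. Tpt1 RNA had one of -0.46 ± 0.13 (adjusted p = 0.084). Without Arf-/- shSCR replicate 1 both were called, with adjusted p of 0.00215 for Pabpc1 and 0.0229 for Tpt1, as was Hnrnpa1 (higher by 0.73, adjusted p = 0.00822).

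**Figure D3:**
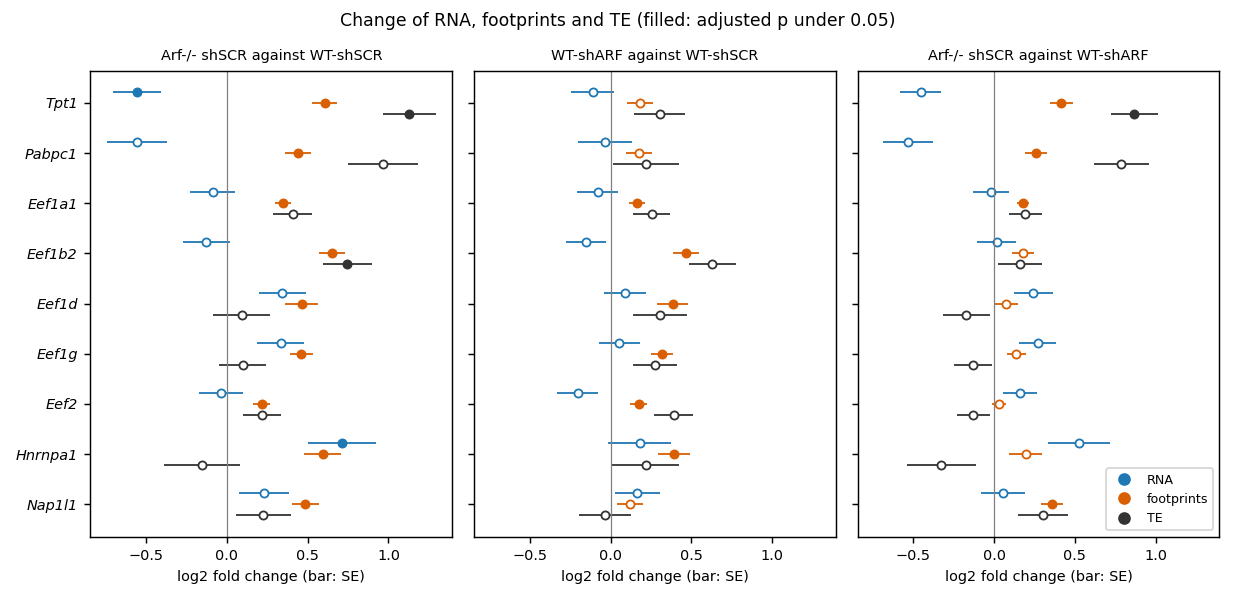
Log2 fold change with its SE of RNA, footprints and TE for each gene in the 3 comparisons, which share groups. Filled points passed an adjusted p of 0.05. Footprints lie above 0 for all 9 genes in every panel, and the TE of Tpt1 is filled in both panels that hold the knockout.

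TE levels spread widely between the 9 genes. Footprints were made with RNase T1, per the methods of the study. Alignments that were not unique made up 79.2% to 81.4% in RNAseq and 46.3% to 52.9% in footprints. The part of either in the differences between genes was not tested. In WT-shSCR the mean log2 CPM of footprints minus that of RNA ran from -0.73 ± 0.11 (SE, n = 2 per assay) for Eef1g to 1.99 ± 0.11 for Hnrnpa1. Nap1l1 was at 1.44 ± 0.07, Tpt1 at 0.47 ± 0.13, Eef1a1 at 0.21 ± 0.04 and Pabpc1 at 0.15 ± 0.35, of which Pabpc1 did not differ from Tpt1 or Eef1a1 beyond its error. Eef1d was at -0.33 ± 0.18, Eef2 at -0.46 ± 0.05 and Eef1b2 at -0.67 ± 0.06. In Arf-/- shSCR, Tpt1 stood at 1.61 ± 0.09, above 97.5% of 11084 genes compared with 74.1% in WT-shSCR, and Pabpc1 at 1.09 ± 0.10. The TE of the elongation factors in the knockout ran from -0.61 ± 0.08 for Eef1g to 0.64 ± 0.14 for Eef1a1.

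**Figure D4:**
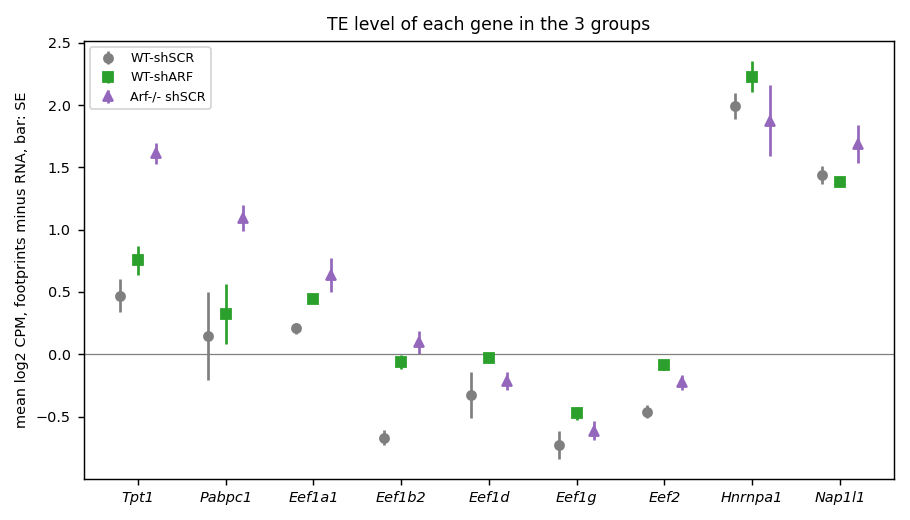
TE level of each gene in each group, as the mean log2 CPM of footprints minus that of RNA, with its SE from 2 libraries per assay. Hnrnpa1 and Nap1l1 are high in all 3 groups, and Tpt1 goes from 0.47 in WT-shSCR to 1.61 in Arf-/- shSCR.

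Other genes of the same machinery were read from lists drawn up alongside the members, and no list was tested as a set. Over all genes tested, 9.57% were called higher in knockout footprints and 5.63% in footprints of the libraries labelled WT-shARF. Of 9 further non-ribosomal 5′-TOP genes, 7 were called higher in knockout footprints and 0 lower, with a median log2 fold change of 0.46. In footprints of the libraries labelled WT-shARF, 5 were called higher. Among them Npm1, a nucleolar chaperone, rose by 0.74 ± 0.07 in knockout footprints and by 0.73 ± 0.15 in RNA. Their median TE change in the knockout was 0.15 on the log2 scale. Of 22 tested elongation and termination factors and their modifiers, 3 were called higher in knockout footprints, with a median change of 0.24 over the list. They were Eif5a, which eases elongation at difficult peptide bonds, at 0.47 ± 0.08, and the termination factors Etf1 at 0.42 ± 0.11 and Gspt1 at 0.37 ± 0.12. Of 9 tested poly(A)-binding proteins and partners, Pabpc4 at 0.85 ± 0.20 and Larp4 at 0.43 ± 0.14 were the 2 called higher in knockout footprints. Of 8 tested relatives of Hnrnpa1 and Nap1l1, 6 were called higher in knockout footprints, among them Set at 0.87 ± 0.10 and Hnrnpa3 at 0.74 ± 0.08. Of 4 mitochondrial elongation factors only Tufm was called, at 0.39 ± 0.14. The 79 tested ribosomal protein genes, the main 5′-TOP class, had a median knockout TE change of 0.47 on the log2 scale. That of the 9 members was 0.23 and that of all genes -0.04. Of the 79, 5 were called higher in TE, as were 0.0884% of all genes tested.

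The genes whose levels were most like Tpt1 over the 12 libraries, by Pearson r of log2 CPM centred within assay among 2601 genes, were Rps27a (r = 0.88), Rps20 (0.84), Fip1l1 (0.82), Pdap1 (0.81) and Rplp1 (0.78). For Pabpc1 they were Ywhae (0.93), Polr2a (0.93), Pcbp2 (0.89), Arid1a (0.89) and Huwe1 (0.88). Among the members, Tpt1 followed Pabpc1 (r = 0.88), Eef1a1 followed Eef1b2 (0.88) and Eef1d followed Eef1g (0.87), and these values are descriptions over libraries that share groups and depth.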

How the data were processed

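RNA and footprints were measured in 12 libraries. The authors removed adapters, barcodes and reads of noncoding RNA, used TopHat for alignment to mm10, and assigned reads to coding sequences by HTSeq. The deposited files hold unnormalized counts. Removal of duplicate reads by molecular identifier is not given in the sources used here. Counts were fitted with edgeR 4.0.16 in R 4.3.3 (filterByExpr, TMM, quasi-likelihood F test), with the assay by condition interaction term of 8 libraries for TE and 4 libraries for RNA or footprints. The threshold was 0.05 on the p-value adjusted by Benjamini-Hochberg across all genes. DESeq2 1.42.0, the study's tool, was an alternative. CPM used TMM within assay. The fits were tested on simulated data with changes larger than any given here for a member. That test does not show how well changes of the size given here are recovered. Members, lists and tests were chosen with earlier results of these data known. Named genes were all members, the called genes of each list with the smallest p (at most 5 are eligible) and the 5 genes most like Tpt1 and Pabpc1. The rule for the printed 5′ tracts (the C-opened tract of at least 5 bases nearest to an annotated 5′ end) replaced the first rule tried (the longest pyrimidine tract in the first 100 bases) after the first had been run on these genes and its picks seen, and both results are given. The 5′ end of 1 member is not reported here.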

Additional observations from a re-analysis of the deposited data

Results flagged for a closer look

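Effects of knockout and of the libraries labelled WT-shARF differed by a direct test between the 2 groups for 5 values. The TE of Tpt1 was higher in Arf-/- shSCR by 0.87 on the log2 scale. Footprints were higher by 0.42 for Tpt1, 0.26 for Pabpc1, 0.18 for Eef1a1 and 0.36 for Nap1l1. The strain differs between these groups. Cdkn2a counts, which pool Arf and Ink4a, were higher in the libraries labelled WT-shARF than in the other groups. The part of strain and of Cdkn2a in these differences was not tested.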

How the results depend on the processing

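Of 1106 member values recomputed under alternatives, 999 kept their direction and side of the threshold, 56 lost a call, 31 gained one and 20 changed sign. For knockout TE, 2 members were called higher, 3 by DESeq2, with at least 10 counts in every library, with all groups in 1 fit or with a culture block, 4 without the filter on low counts, and 1 to 4 when 1 library was left out. In the settings that called 3 members for knockout TE, the added member was Eef1a1 by DESeq2 and Pabpc1 in the others. For knockout RNA, 1 member was called higher and 1 lower. DESeq2 called 0 higher, upper quartile factors and no filter called 2 lower each, and leaving out a library gave 0 to 1 higher and 0 to 2 lower. Knockout footprints went from 9 members to 0 to 9 without a library, those of the libraries labelled WT-shARF from 6 to 2 to 6, and knockout against WT-shARF from 4 to between 0 and 5. TE in the libraries labelled WT-shARF had 0 calls, 2 by DESeq2, 1 without the filter, 1 with a culture block and 0 to 1 without a library. Knockout against WT-shARF TE had 1 call, 2 by DESeq2, without the filter or with a culture block, and 0 to 2 without a library, and its RNA had 2 lower without the filter and 0 to 1 higher and 0 to 2 lower without a library. The cause was not tested.

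The replicate number as a replicate block gave 0 members higher and 0 lower in knockout RNA, 1 higher for TE in the libraries labelled WT-shARF and 2 for TE of knockout against WT-shARF. Deviations of same-numbered libraries correlated at -0.08 to 0.05 over 8223 genes. Noise between libraries would also give values near 0, so these values cannot tell whether same-numbered samples are paired.

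The values that changed sign are these. When 1 library was left out, knockout TE ran from -0.0545 to 0.341 for Eef1d, -0.0108 to 0.213 for Eef1g and -0.36 to 0.10 for Hnrnpa1, and knockout RNA from -0.228 to 0.0440 for Eef1a1 and -0.0854 to 0.0201 for Eef2. In the libraries labelled WT-shARF, TE ran from -0.20 to 0.54 for Pabpc1 and -0.137 to 0.0363 for Nap1l1, and RNA from -0.230 to 0.0197 for Tpt1, -0.35 to 0.35 for Pabpc1 and -0.0549 to 0.176 for Eef1g. For knockout against WT-shARF, RNA ran from -0.15 to 0.11 for Eef1a1, -0.0586 to 0.0916 for Eef1b2 (-0.00618 with upper quartile factors) and -0.0901 to 0.190 for Nap1l1, and Hnrnpa1 footprints from -0.0101 to 0.370. Over all genes, knockout TE calls were 10 higher and 12 lower, 59 and 14 by DESeq2, 83 and 40 without the filter, which moved the median of all genes by 0.10, and 38 and 14 with all groups in 1 fit. A group left with 1 library is assumed to vary like the others.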
